A study of Mus musculus with 4 samples.

Results

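The genes examined here, 8 in number, build or control the podocyte slit diaphragm and its actin cytoskeleton, among the 32285 genes measured by scRNA-Seq of whole mouse kidney. The 8 members, chosen by symbol, are *Nphs1*, *Kirrel*, *Magi2*, *Cd2ap*, *Synpo*, *Actn4*, *Podxl* and *Wt1*. Their levels were read in podocyte barcodes, defined as kept barcodes with at least 5 UMIs (unique molecular identifiers, each standing for 1 captured transcript) summed over *Cdkn1c*, *Clic3* and *Ptpro*, none of which is a member. This gate selected 1603 of 34789 kept barcodes.

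The data came from 4 libraries, 1 library per condition, from kidneys of male C3H mice (C3H/HeJ in the study's methods) harvested at 18 weeks of age. WT-ND and WT-HFD mice were wild type and were fed normal diet (ND) or high-fat diet (HFD, 60% of calories from fat) for 8 weeks from 10 weeks of age. SP-ND and SP-HFD mice had the same diets and were homozygous for the Sweet Pee missense allele of *Slc5a2*, the gene for the glucose transporter SGLT2, in every tissue. The labels give SP as MT, the number of animals behind each library is not given in the sources used here, and a missense allele need not alter its own transcript count, so *Slc5a2* counts did not check the genotype labels.

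Podocytes are the epithelial cells that wrap the glomerular capillaries with interdigitating foot processes. Neighbouring foot processes are joined by the slit diaphragm, a modified cell junction through which the primary filtrate passes. Its membrane proteins are tied through adaptor and scaffold proteins to the actin bundles that hold the shape of the foot process, and loss of several of these genes causes proteinuria in people and mice.

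The members map to the following places in GRCm38 (mm10), as annotated by GENCODE. *Nphs1*, the gene for the slit diaphragm protein nephrin (ENSMUSG00000006649), spans bases 30458315 to 30487223 of the plus strand of chromosome 7. *Kirrel* (ENSMUSG00000041734), which encodes its partner Neph1, spans 87078593 to 87174747 of the minus strand of chromosome 3. The scaffold gene *Magi2* (ENSMUSG00000040003) spans 19227036 to 20704792 of the plus strand of chromosome 5, and the adaptor gene *Cd2ap* (ENSMUSG00000061665) spans 42792951 to 42876665 of the minus strand of chromosome 17. *Synpo*, the gene for the actin-associated protein synaptopodin (ENSMUSG00000043079), lies on the minus strand, and *Actn4* (ENSMUSG00000054808), the gene for the actin crosslinker alpha-actinin-4, spans 28893248 to 28962340 of the minus strand of chromosome 7. *Podxl*, the gene for the surface sialomucin podocalyxin (ENSMUSG00000025608), spans 31519488 to 31563981 of the minus strand of chromosome 6. *Wt1* (ENSMUSG00000016458), a zinc finger transcription factor gene, spans 105126529 to 105173616 of the plus strand of chromosome 2.

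Promoter windows from RefSeq (GRCm38.p6, 250 bases before to 50 after a start site) were matched for 5 of the 8 members. Those of 3 members are shown because their genes span the range of cell-class patterns described below, with *Nphs1* almost confined to podocyte barcodes, *Kirrel* shared with mural cells and *Actn4* present in every class. Each runs 5′ to 3′ on the gene's strand, and capitals mark CG pairs.
Nphs1, chr7:30459808-30460107, plus strand: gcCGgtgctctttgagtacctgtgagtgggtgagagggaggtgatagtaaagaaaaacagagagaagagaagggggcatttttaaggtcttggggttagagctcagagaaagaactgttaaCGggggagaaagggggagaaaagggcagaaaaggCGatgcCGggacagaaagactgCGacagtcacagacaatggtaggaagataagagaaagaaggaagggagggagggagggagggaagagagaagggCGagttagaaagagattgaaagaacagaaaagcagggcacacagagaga
Kirrel, chr3:87174488-87174787, minus strand: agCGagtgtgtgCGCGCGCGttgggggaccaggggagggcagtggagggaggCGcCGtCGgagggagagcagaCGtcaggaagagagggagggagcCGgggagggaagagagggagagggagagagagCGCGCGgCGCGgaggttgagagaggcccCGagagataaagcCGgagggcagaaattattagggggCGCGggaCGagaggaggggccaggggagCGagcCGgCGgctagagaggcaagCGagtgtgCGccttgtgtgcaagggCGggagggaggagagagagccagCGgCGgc
Actn4, chr7:28962283-28962582, minus strand: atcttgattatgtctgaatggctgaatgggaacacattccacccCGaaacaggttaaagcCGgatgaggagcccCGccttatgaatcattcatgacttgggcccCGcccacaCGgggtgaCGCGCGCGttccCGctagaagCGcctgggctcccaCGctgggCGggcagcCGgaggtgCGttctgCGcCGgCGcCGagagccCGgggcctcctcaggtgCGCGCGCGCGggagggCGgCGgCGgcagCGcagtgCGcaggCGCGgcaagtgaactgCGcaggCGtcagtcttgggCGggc
The *Nphs1* window held 6 CG pairs, the *Kirrel* window 28 and the *Actn4* window 35. Over all 32851 windows the median was 7, with quartiles of 3 and 20, so *Nphs1* lay near the middle and the other windows shown lay above the upper quartile. *Cd2ap* had 41 CG pairs, and the 2 windows of *Magi2* had 29 and 4. The letters GTGGGAG, a core of the Wt1 binding motif, were searched on both strands (CTCCCAC on the other). They were found once in the *Cd2ap* window and once in the *Actn4* window, in no other member window, and in 9.73% of all windows.

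The podocyte barcodes numbered 484 in WT-ND, 278 in SP-ND, 502 in WT-HFD and 339 in SP-HFD, or 4.12% to 5.18% of kept barcodes per library. Among the genes with the largest fold over other classes in these barcodes were *Cdkn1c*, *Clic3*, *Nphs1* and *Rab3b*, and 5 of the top 10 were podocyte markers, 3 of them gate genes. Whole libraries held 90728590 to 115117649 UMIs, and the podocyte barcodes 2454412 to 4453361 UMIs per library. Library pairs shared 54 to 77 barcode sequences, and no shared barcode was a podocyte barcode in both libraries of a pair.

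The WT-HFD podocyte barcodes stood apart from the other libraries. Their median share of mitochondrial UMIs was 18.0%, against 5.78% to 7.35% elsewhere, and the gate genes made up a median of 38.3 of 10000 UMIs, against 72.6 to 86.1. A barcode was called mixed when the summed UMIs of the markers of any of 11 other kidney cell classes exceeded its gate UMIs. Mixed barcodes were 259 of 502 in WT-HFD (51.6%), 105 of 484 in WT-ND (21.7%), 35 of 278 in SP-ND (12.6%) and 33 of 339 in SP-HFD (9.74%). Proximal tubule markers led in 171 of the 259 mixed WT-HFD barcodes and thick ascending limb markers in 50. In the WT-HFD library 275 further barcodes had 3 or 4 gate UMIs, against 29 to 49 in the other libraries. Member levels by library are therefore given for 2 sets, over all podocyte barcodes and without the mixed ones. Without them 379 barcodes were left in WT-ND, 243 in SP-ND, 243 in WT-HFD and 306 in SP-HFD. Runs of 4 values follow the order WT-ND, SP-ND, WT-HFD, SP-HFD.

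**Figure D1:**
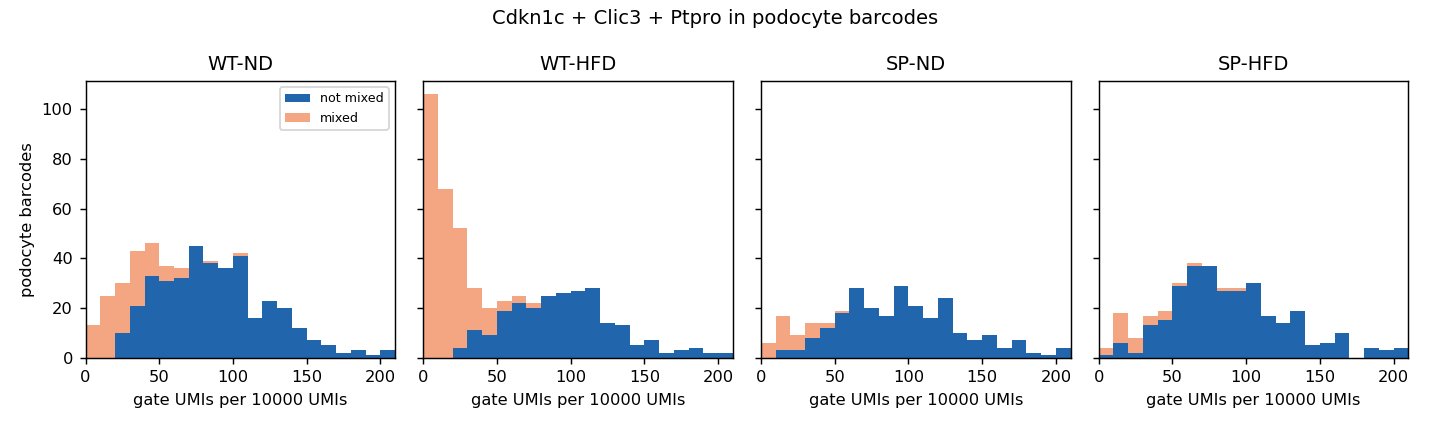
Number of podocyte barcodes (y axis) by UMIs of *Cdkn1c*, *Clic3* and *Ptpro* per 10000 UMIs of the barcode (x axis), 1 panel per library, with mixed barcodes stacked on the others and all values from 200 upwards in the last bin. WT-HFD has a tall group of mixed barcodes at the low end that the other 3 libraries do not show at that height.

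Levels are CPM (the UMIs of a gene scaled to a total of 1e6 UMIs), pooled over the podocyte barcodes of a library, with exact Poisson 95% intervals. Since each condition has a single library, the spread between replicates is unknown, no test between conditions was possible, and the intervals reflect counting error alone. The 3′ UMI counts are not scaled by gene length, so levels are compared between libraries or classes within a gene and not between genes.

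*Nphs1* encodes nephrin, the protein that spans the slit. Over all podocyte barcodes it was at 1078 CPM in WT-ND (1040 to 1116), 1053 in SP-ND (1013 to 1094), 567.9 in WT-HFD (546 to 590.5) and 958.4 in SP-HFD (920.5 to 997.5). WT-HFD lay well below the other 3 libraries. Without mixed barcodes the levels were 1373, 1163, 1048 and 1014 CPM in the same order. WT-ND was then the highest and both HFD libraries the lowest, with the 2 HFD intervals overlapping.

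*Kirrel*, whose product pairs with nephrin across the slit, had the fewest counts of the members, 232 to 316 UMIs per library. It was at 84.5 CPM in WT-ND, 94.5 in SP-ND, 71.0 in WT-HFD and 109 in SP-HFD over all podocyte barcodes. Without mixed barcodes WT-HFD moved from the lowest to the highest place, at 132 CPM (117 to 148), against 112 CPM in SP-HFD (98.7 to 127), 104 in WT-ND (90.1 to 119) and 102 in SP-ND (88.8 to 117), and its interval overlapped those of the other 3 libraries.

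Among the adaptors, *Magi2*, which encodes a scaffold bound to nephrin, was at 549.2, 618.9, 298.4 and 534.7 CPM. Without mixed barcodes it was at 704.7, 678.8, 546.8 and 563.2 CPM, so that both HFD libraries lay below both ND libraries. *Cd2ap*, the adaptor that links nephrin to actin and to endocytosis, was at 961.5, 1033, 674.3 and 996.3 CPM, again lowest in WT-HFD. Without mixed barcodes its 4 levels lay between 1070 and 1169 CPM, the narrowest relative range of the 8 members.

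Of the cytoskeletal members, *Synpo* was at 1084, 1337, 701 and 1172 CPM, and at 1332, 1485, 1279 and 1239 CPM without mixed barcodes. SP-ND was the highest library in both sets. The gene spans bases 60593973 to 60660142 of chromosome 18. *Actn4* was at 517.3, 534.1, 352.3 and 479.6 CPM, and at 613.1, 571, 557.8 and 502.4 CPM without mixed barcodes. The lowest library for *Actn4* was thus WT-HFD in the first set and SP-HFD in the second.

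*Podxl*, whose product coats the foot process surface, had the most counts of the members, 10806 to 11308 UMIs per library. It was at 3931, 4461, 2492 and 4312 CPM, and at 4847, 4936, 4483 and 4518 CPM without mixed barcodes. *Wt1*, needed for podocyte identity, was at 657, 781.9, 381.5 and 711.4 CPM, and at 811.6, 864.5, 684.3 and 753.4 CPM without mixed barcodes. For both genes the 2 HFD libraries were the lowest once mixed barcodes were left out.

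**Figure D2:**
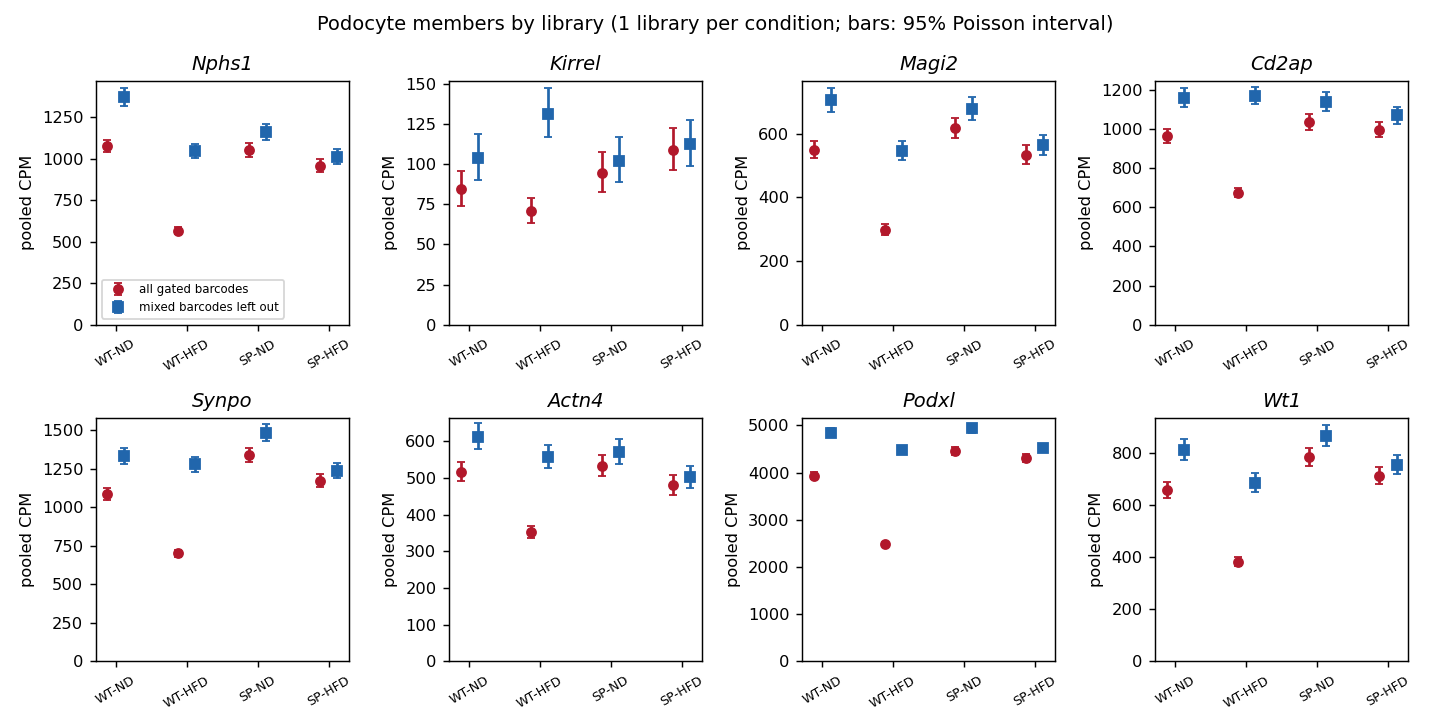
Pooled CPM (y axis, from 0) of each member in the podocyte barcodes of the 4 libraries (x axis), over all gated barcodes (circles) and with mixed barcodes left out (squares), with exact Poisson 95% intervals. The WT-HFD circle is the lowest circle of every panel, and the squares of the 4 libraries span a smaller fold than the circles.

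Mixed barcodes held less of every member than the other podocyte barcodes of the same library. The mixed call picks barcodes whose gate UMIs fall short of another class's markers, so lower podocyte gene levels follow in part from it. In WT-HFD the mixed barcodes were at 103 CPM of *Nphs1*, 58.3 of *Magi2* and 567.5 of *Podxl*. In the other libraries the mixed barcodes were at 441.5 to 597.4 CPM of *Nphs1*. *Nphs1* was also higher at each step of the gate, which itself sorts barcodes by podocyte genes. In WT-HFD it was at 47.0 CPM in barcodes with 3 or 4 gate UMIs, 58.4 in those with 5 or 6 and 824 in those with 10 or more. In WT-ND the corresponding levels were 123, 457 and 1121 CPM. The WT-HFD barcodes just inside the gate therefore differed little in *Nphs1* from those just outside it.

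The first comparison asked how HFD feeding related to these genes in wild-type mice. Over all podocyte barcodes 5 of 8 members were past 1.5-fold lower in WT-HFD than in WT-ND and none was past 1.5-fold higher, against 20.6% of 9225 genes past 1.5-fold in either direction (12.4% lower). On the log2 scale the differences were -0.92 for *Nphs1* (0.527 times the WT-ND level), -0.88 for *Magi2* (-0.99 to -0.77) and -0.78 for *Wt1* (-0.88 to -0.69). *Podxl* and *Synpo* were at -0.66 and -0.63. *Actn4*, *Cd2ap* and *Kirrel* stayed inside 1.5-fold at -0.55, -0.51 and -0.25. The member median was -0.64, beside -0.15 over all genes tested and -0.65 over the podocyte markers that are neither members nor gate genes.

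These differences were smaller without mixed barcodes. No member was then past 1.5-fold, against 10.2% of 7241 genes. The mixed call drops barcodes partly by their gate UMIs, so podocyte gene levels without mixed barcodes are partly set by it. This holds in the later comparisons too. The member median was -0.12, beside -0.03 over all genes and -0.11 over the podocyte markers that are neither members nor gate genes. *Nphs1* was at -0.39 (-0.47 to -0.31), *Magi2* at -0.37 (-0.48 to -0.25) and *Wt1* at -0.25 (-0.35 to -0.14). *Synpo* at -0.06 (-0.14 to 0.02) and *Cd2ap* at 0.01 (-0.07 to 0.09) had intervals that include 0. *Kirrel* was on the other side, at 0.34 (0.08 to 0.61). Marker sums of other classes differed between the 2 libraries as well, not all in the same direction. Proximal tubule markers summed to 4019 CPM in the WT-HFD podocyte barcodes and 3175 in WT-ND, with none of 14 at 0 in either, and thick ascending limb markers to 2306 and 1654 CPM. Without mixed barcodes proximal tubule markers were at 542 CPM in WT-HFD and 1362 in WT-ND. Here and in the later comparisons these markers enter the mixed call, so lower sums without mixed barcodes follow from the rule. Of the other classes, intercalated markers summed to 365 CPM in WT-HFD and 123 in WT-ND, B or plasma markers to 282.5 (2 of 7 at 0) and 21.2, macrophage markers to 59.1 and 11.5, and endothelial markers to 1187 and 1465. With barcodes limited to under 30% mitochondrial UMIs, 2 members were past 1.5-fold lower and the member median was -0.39. It was -0.57 with mitochondrial genes out of the total and -0.64 with at least 1000 UMIs per barcode. No member was past 1.5-fold in this comparison with a gate of at least 10 UMIs (414 barcodes in WT-ND and 300 in WT-HFD), which keeps barcodes by their gate UMIs alone. Shares of all genes past 1.5-fold are not given for these settings.

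The second comparison asked the same in SP mice. Between SP-HFD and SP-ND no member was past 1.5-fold, against 9.71% of 7777 genes. *Magi2* was at -0.21 (-0.32 to -0.10), *Synpo* at -0.19 (-0.26 to -0.12) and *Nphs1* at -0.14 (-0.22 to -0.05) on the log2 scale. *Kirrel* was at 0.20 with an interval that includes 0 (-0.05 to 0.46). The member median was -0.14 beside 0.04 over all genes. Leaving out mixed barcodes changed little. No member was past 1.5-fold, against 9.14% of 7178 genes. The member median was -0.19, beside 0.02 over all genes and -0.18 over the podocyte markers that are neither members nor gate genes. Intervals, which cover counting error only, lay below 0 for 7 of 8 members. The share of all genes with such intervals is not given here.

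Without mixed barcodes *Nphs1*, *Magi2*, *Wt1*, *Podxl* and *Actn4* were lower with HFD in both genotypes, with intervals below 0 in each. No member was past 1.5-fold in either genotype. The intervals cover counting error only, and the share of all genes with intervals below 0 in both genotypes is not given here. The lower levels were not particular to the members. The other podocyte markers had medians of -0.11 in WT mice and -0.18 in SP mice, near the member medians of -0.12 and -0.19. In SP mice the values were -0.20 for *Nphs1*, -0.27 for *Magi2*, -0.20 for *Wt1*, -0.13 for *Podxl* and -0.18 for *Actn4*. In WT mice *Podxl* was at -0.11 and *Actn4* at -0.14. Whether the diet difference itself differed between genotypes could not be tested with 1 library per condition.

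The third comparison set SP-ND against WT-ND, the genotype difference on normal diet. No member was past 1.5-fold, against 10.3% of 8194 genes. *Synpo* was at 0.30 (0.23 to 0.37), *Wt1* at 0.25 (0.16 to 0.34), *Podxl* at 0.18 and *Nphs1* at -0.03 (-0.11 to 0.04). Without mixed barcodes, where 7.77% of 7139 genes were past 1.5-fold, no member was. *Synpo* was still higher in SP-ND at 0.16 (0.08 to 0.23) and *Nphs1* was lower at -0.24 (-0.32 to -0.16). The other 6 had intervals that include 0. Proximal tubule markers summed to 1523 CPM in the SP-ND podocyte barcodes and 3175 in WT-ND, and to 634 and 1362 without mixed barcodes, and thick ascending limb markers to 930.2 and 1654 CPM. Their part in the differences that remain without mixed barcodes was not tested.

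The fourth comparison set SP-HFD against WT-HFD. Over all podocyte barcodes 6 of 8 members were past 1.5-fold higher in SP-HFD, against 26.1% of 8972 genes past it in either direction (13.0% higher). *Wt1* was at 0.90 (0.80 to 1.00), *Magi2* at 0.84, *Podxl* at 0.79, *Nphs1* at 0.76, *Synpo* at 0.74 and *Kirrel* at 0.62. *Cd2ap* and *Actn4* were at 0.56 and 0.45. The member median was 0.75 beside 0.20 over all genes and 0.74 over the other podocyte markers. Without mixed barcodes no member was past 1.5-fold, against 5.59% of 7248 genes, and the median was -0.05 beside -0.02. *Podxl* was at 0.01 (-0.03 to 0.05), *Nphs1* at -0.05 (-0.13 to 0.04) and *Wt1* at 0.14 (0.04 to 0.24). *Cd2ap* at -0.13 and *Actn4* at -0.15 were lower in SP-HFD with intervals below 0. The SP-HFD podocyte barcodes held 799 CPM of proximal tubule markers, against 4019 in WT-HFD, and 507 and 542 CPM without mixed barcodes. Every library enters 2 of the 4 comparisons, so these are not independent of one another.

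**Figure D3:**
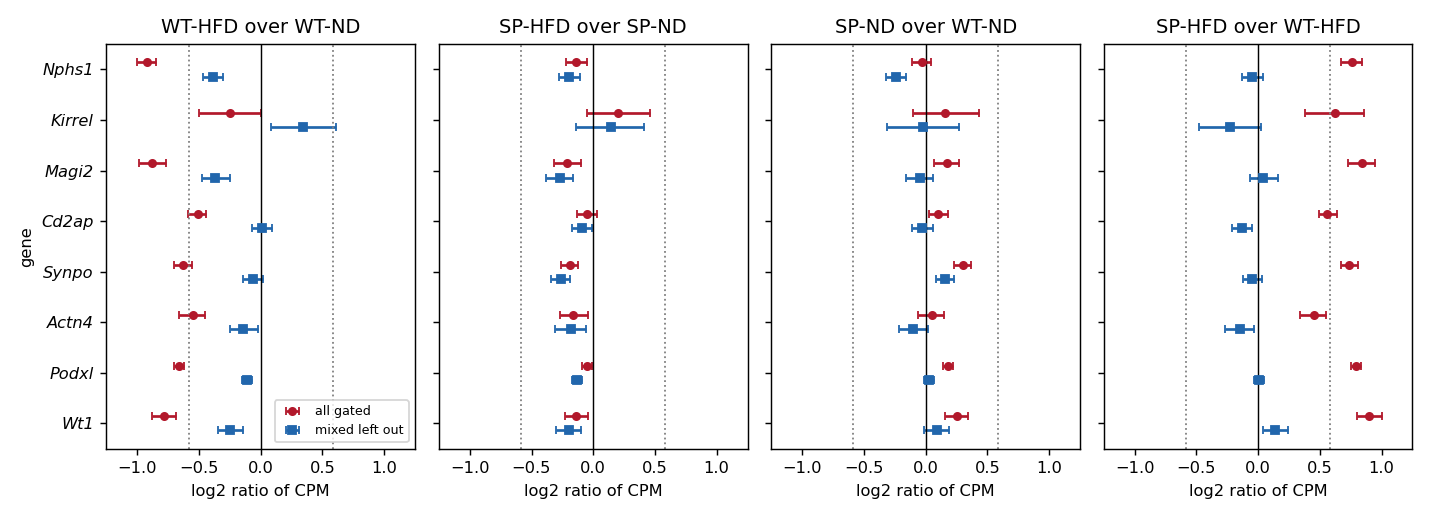
Log2 ratio of pooled CPM (x axis) for each member (y axis) in the 4 comparisons, over all gated barcodes (circles) and with mixed barcodes left out (squares), with exact conditional binomial 95% intervals and dotted lines at 1.5-fold. Circles lie past a dotted line for 5 members in WT-HFD over WT-ND and 6 in SP-HFD over WT-HFD, and no square does.

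Other genes of the same structures were followed in 5 lists of 84 genes that exclude the members. Of the slit diaphragm membrane proteins, 5 of the 7 measured genes were past 1.5-fold lower in WT-HFD than in WT-ND (12.4% of all genes), and none of 6 was without mixed barcodes. *Cldn5*, a tight junction claudin, went from 789.1 and 623.3 CPM in WT-ND and WT-HFD to 1008 and 1120 CPM without mixed barcodes. *Ptpro*, a receptor phosphatase on podocytes, was at 949.7 to 1009 CPM in the 4 libraries without mixed barcodes, a level that is partly set by its use in the gate and in calling barcodes mixed. *Efnb1*, *Fat1*, *Crb2* and the low-count gene *Kirrel2* were among those past 1.5-fold lower in WT-HFD, at -0.75, -0.59, -0.89 and -0.96. All 6 measured genes were past 1.5-fold higher in SP-HFD than in WT-HFD over all podocyte barcodes (13.0% of all genes), and none was without mixed barcodes.

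Of the adaptor and signalling genes, 5 of 13 were past 1.5-fold lower in WT-HFD than in WT-ND over all podocyte barcodes (12.4% of all genes) and none without mixed barcodes. *Plce1*, a phospholipase C whose loss causes nephrotic syndrome, was at -0.83 (-0.97 to -0.70), *Fyn*, the kinase that phosphorylates nephrin, at -0.81 and *Tjp1*, the gene for the junction protein ZO-1, at -0.60. In SP-HFD against WT-HFD 5 of 13 were past 1.5-fold higher (13.0% of all genes), *Plce1* at 0.93 and *Tjp1* at 0.70, and again none without mixed barcodes. In SP-HFD against SP-ND 1 of 13 was past 1.5-fold lower in each set. Of all genes, 9.71% were past it in either direction over all podocyte barcodes and 9.14% without mixed ones. The gene was *Iqgap1*, an actin scaffold that binds nephrin, at -0.61 (-0.75 to -0.46) and, without mixed barcodes, -0.68 (-0.84 to -0.52). Its level there was 254.7 CPM in SP-HFD and 408.3 in SP-ND. In WT mice *Iqgap1* was at 309.7 CPM with HFD and 324.4 with ND without mixed barcodes, a log2 difference of -0.07 (-0.22 to 0.09).

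The list for the foot process cytoskeleton was not limited to actin genes. In it 2 of 23 were past 1.5-fold lower in WT-HFD than in WT-ND, *Sema3g* at -0.66 and *Plekhh2* at -0.81, a smaller share than the 12.4% of all genes. In SP-HFD against WT-HFD 8 of 23 were past it higher (13.0% of all genes), among them *Vim* (vimentin, 0.67), *Tmod3* (tropomodulin 3, 0.73) and *Nes* (nestin, 0.60). None was past 1.5-fold in any comparison without mixed barcodes. *Vim*, an intermediate filament gene, was then at 1304, 1441, 1838 and 1744 CPM, the higher levels being those of the 2 HFD libraries. *Sema3g*, a secreted semaphorin, was at 1720, 1506, 1642 and 1332 CPM and *Tmod3* at 963.4 to 1023 CPM.

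Of the transcription factors, 6 of 13 were past 1.5-fold lower in WT-HFD than in WT-ND over all podocyte barcodes, with *Dach1* at -0.64 (-0.77 to -0.51), and 7 of 13 were past it higher in SP-HFD than in WT-HFD, against 12.4% and 13.0% of all genes. Apart from *Iqgap1*, the listed genes past 1.5-fold without mixed barcodes were all in this list. They were 2 of 11 in WT-HFD against WT-ND (10.2% of all genes) and 1 of 12 in SP-HFD against SP-ND (9.14%). In SP-ND against WT-ND they were 1 of 13 (7.77%), and in SP-HFD against WT-HFD 3 of 12 (5.59%). *Tcf21*, a basic helix-loop-helix factor of podocytes, was at 608.5 CPM in WT-ND, 432.8 in SP-ND, 917.7 in WT-HFD and 765.9 in SP-HFD without mixed barcodes. Both HFD libraries lay above both ND libraries. On the log2 scale HFD exceeded ND by 0.59 (0.49 to 0.70) in WT mice and by 0.82 (0.70 to 0.94) in SP mice. Over all podocyte barcodes the differences were 0.12 (0.02 to 0.22) and 0.91 (0.80 to 1.03). *Foxd2*, a forkhead factor, was lower in WT-HFD, at 52.5 CPM against 84.0 in WT-ND, a difference of -0.68 (-1.03 to -0.33) that rested on 115 and 165 UMIs. It was 0.67 (0.32 to 1.02) higher in SP-HFD than in WT-HFD.

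*Klf15*, a Krüppel-like factor, was 1.22 (0.46 to 2.03) higher in SP-ND than in WT-ND without mixed barcodes, from 50 and 21 UMIs. *Zhx3* and *Klf15* were past 1.5-fold higher in SP-HFD than in WT-HFD without mixed barcodes, at 0.64 (-0.21 to 1.53) and 0.65 (-0.08 to 1.40), both with intervals that include 0. Without mixed barcodes *Klf15* was at 10.69 to 24.96 CPM per library, below its 28.04 to 39.74 CPM in the 11 other classes together. *Zhx3* was at 9.136 to 17.97 CPM, below its 25.23 to 35.01 CPM in those classes. Whether the UMIs of these 2 genes came from podocytes was not tested. *Dach1* was at 422.1, 519.6, 376.9 and 380.9 CPM without mixed barcodes.

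Of the basement membrane and adhesion genes, 6 of 21 were past 1.5-fold lower in WT-HFD than in WT-ND over all podocyte barcodes (12.4% of all genes). *Thsd7a*, which encodes a foot process antigen, was at -0.79 (-0.86 to -0.72), *Dag1* (dystroglycan) at -0.73 and *Col4a4*, a collagen IV chain gene, at -0.65. In SP-HFD against WT-HFD 15 of 21 were past 1.5-fold higher (13.0% of all genes), with *Thsd7a* at 0.88, *Enpep* (aminopeptidase A) at 0.84 and *Col4a3* at 0.73. Without mixed barcodes none was past 1.5-fold in any comparison. *Npnt*, the gene for the matrix protein nephronectin, was then at 1338, 1634, 1299 and 1248 CPM, and *Enpep* at 1439 to 1537 CPM. *Lims1* alone was past 1.5-fold in SP-ND against WT-ND over all podocyte barcodes, at 0.61.

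**Figure D4:**
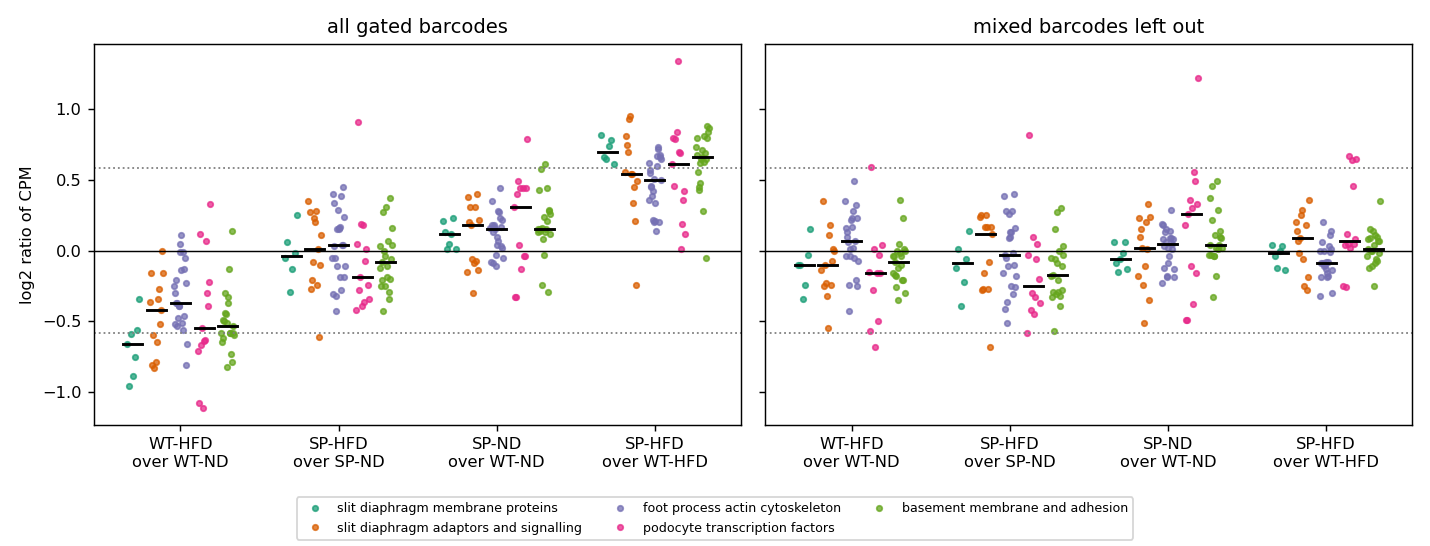
Log2 ratio of pooled CPM (y axis) of the measured genes of the 5 lists (colours) in the 4 comparisons (x axis), over all gated barcodes (left) and with mixed barcodes left out (right), with a bar at each list's median and dotted lines at 1.5-fold. The list medians of WT-HFD over WT-ND lie between -0.66 and -0.37 on the left and between -0.16 and 0.07 on the right.

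The levels of the members in the other cell classes were read next, as the background to the podocyte values. Podocyte values set beside them are over all podocyte barcodes, mixed ones included, unless stated. Classes were assigned from marker lists that do not contain the members. Barcodes that took no class are left out of this background, and they were at 5.3 to 9.3 CPM of *Nphs1* per library. Those with 3 or 4 gate UMIs are left out too, at 28.5 CPM in SP-HFD to 123 CPM in WT-ND. *Nphs1* was at 1.23 to 2.66 CPM per library in the 11 other classes together, 46 to 114 UMIs in all, and the podocyte level was 213.6 to 856.5 times as high. The smallest of these ratios was that of WT-HFD, 394.3 without mixed barcodes. Podocyte barcodes held 86.9% to 95.9% of all *Nphs1* UMIs of the kept barcodes. The classes next in order for *Nphs1*, led by B or plasma cells at a median of 5.83 CPM, overlapped one another in their ranges over the 4 libraries. The B or plasma value rested on only 1 to 11 UMIs per library.

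*Wt1* and *Synpo* were almost as restricted. *Wt1* was at 14.8 to 29.7 CPM in mural, mesangial or fibroblast barcodes, a class of contractile and stromal cells, against 381.5 to 781.9 in podocyte barcodes, and at a median of 2.61 CPM or less in the other classes. *Synpo* was at 87.2 to 117 CPM in the mural class and 31.0 to 45.4 CPM in endothelial barcodes, and these ranges did not overlap. Podocyte barcodes held 83.2% to 93.5% of *Wt1* UMIs and 77.5% to 88.5% of *Synpo* UMIs.

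*Kirrel* had a second site of expression in the mural class, at 33.7 to 49.5 CPM over the 4 libraries, against 71.0 to 109 in podocyte barcodes. Podocyte barcodes were 1.64 to 2.73 times as high, the smallest ratio being that of WT-HFD, and the ranges did not overlap. Without mixed barcodes the podocyte range was 102 to 132 CPM, with WT-HFD the highest. Endothelial barcodes followed at 1.11 to 1.91 CPM. Podocyte barcodes held 64.2% to 75.5% of *Kirrel* UMIs.

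*Podxl* was shared with the endothelium, where podocalyxin also coats the luminal surface. Endothelial barcodes were at 702.7 to 839.3 CPM and podocyte barcodes 3.55 to 5.96 times as high, without overlap. The smallest ratio was that of WT-HFD. Without mixed barcodes the podocyte range was 4483 to 4936 CPM. The remaining classes had medians of 46.0 CPM or less. *Magi2* was at 17.2 to 52.7 CPM in collecting duct principal barcodes, 21.7 to 31.8 in the mural class and 15.1 to 17.8 in proximal tubule barcodes, against 298.4 to 618.9 in podocyte barcodes. The principal and mural ranges overlapped.

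*Cd2ap* and *Actn4* were found in every class. *Cd2ap* was at 264.2 to 424.2 CPM in intercalated and 299.1 to 484.9 CPM in collecting duct principal barcodes, overlapping each other, and at 674.3 to 1033 in podocyte barcodes. Podocyte barcodes held 22.0% to 26.9% of *Cd2ap* UMIs and 15.6% to 16.9% of *Actn4* UMIs. *Actn4* was at 412.1 to 485.7 CPM in the mural class and 352.3 to 534.1 CPM in podocyte barcodes, and these ranges overlapped. Without mixed barcodes the podocyte range, 502.4 to 613.1 CPM, lay above the mural range. Endothelial barcodes were next at 205.4 to 270.8 CPM.

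**Figure D5:**
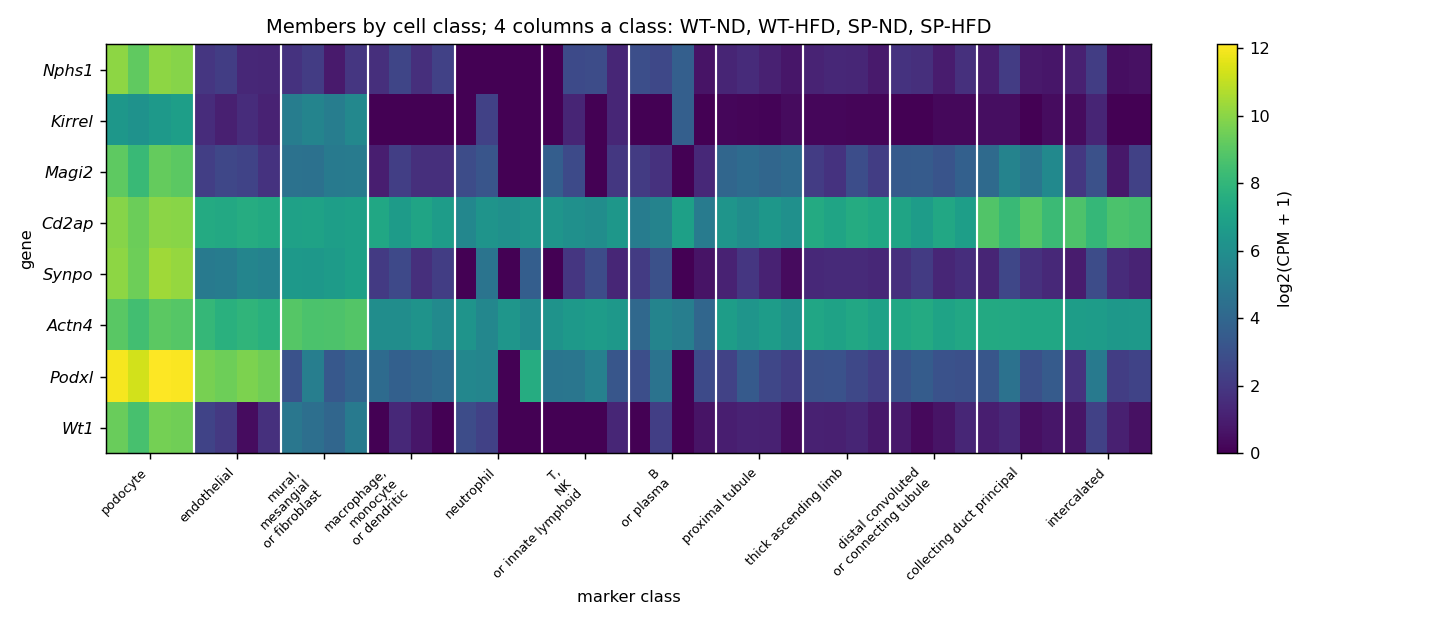
Log2(CPM + 1) of each member (rows) in the 12 marker classes (x axis), with 4 columns per class, 1 per library in the order of the title, and colour giving the level. *Cd2ap* and *Actn4* are coloured in every class, *Podxl* also stands out in endothelial barcodes, and the other members are highest in podocyte barcodes.

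Per barcode, podocytes held several members at once. After each barcode was thinned to 1000 UMIs, the mean number of members with at least 1 UMI was 4.25 of 8 in WT-ND, 4.35 in SP-ND, 2.63 in WT-HFD and 4.27 in SP-HFD. It was 4.64, 4.53, 4.23 and 4.37 without mixed barcodes. In T, NK or innate lymphoid barcodes, a class that should lack most members, it was 0.147 to 0.177. Unthinned, the median podocyte barcode held 6 to 8 members. The median depth was 4890, 7844, 8092 and 6773 UMIs per podocyte barcode, and 2180 to 3375 per lymphoid barcode.

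*Nphs1* was detected in 63.8%, 61.4%, 35.1% and 60.0% of thinned podocyte barcodes, and in 71.3%, 64.4%, 59.9% and 61.5% without mixed barcodes. Unthinned, the shares were 93.2%, 92.4%, 67.3% and 96.2%. At most 0.711% of thinned T, NK or innate lymphoid barcodes had an *Nphs1* UMI. Unthinned, it was 0 of 119 barcodes of that class in WT-ND, with an exact upper limit of 3.05%. Thinned B or plasma barcodes were at 0.0361% to 2.95%, the highest being SP-ND, where 1 of 33 barcodes had an *Nphs1* UMI. *Podxl* was detected in 93.9%, 96.0%, 65.7% and 96.2% of thinned podocyte barcodes and in 94.6% to 97.8% without mixed barcodes. *Kirrel* was detected in only 6.65% to 10.7%, with WT-HFD the lowest, and in 9.13% to 12.4% without mixed barcodes, with WT-HFD the highest. *Actn4* was detected in 26.4% to 41.5%, and in 39.9% to 45.6% without mixed barcodes. T, NK or innate lymphoid barcodes were at 6.08% to 8.69% for *Actn4*. Mural, mesangial or fibroblast barcodes were at 29.3% to 35.5%, which overlapped the range over all podocyte barcodes. Thinning left out 1 to 10 podocyte barcodes per library that held under 1000 UMIs.

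Among podocyte barcodes that were not mixed and held at least 1000 UMIs, levels varied widely. *Nphs1* ranged from 4.82 to 22.8 UMIs per 10000 between the 10th and 90th percentiles in WT-ND, with a median of 12.6, and the medians of SP-ND, WT-HFD and SP-HFD were 10.7, 9.40 and 9.25. *Podxl* medians were 45.4, 47.2, 39.7 and 44.7 per 10000, with 10th percentiles of 19.8 to 29.0. By these medians the 2 HFD libraries were the lowest for 6 of the 8 members, *Cd2ap* and *Kirrel* being the exceptions. The same share over all genes is not given here.

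The genes most like each member were sought by Pearson's r of log2(CPM + 1) over 48 profiles, 12 classes in each of 4 libraries. The search was limited to 10257 genes with at least 50 UMIs in the podocyte barcodes of the 4 libraries, where the members are high. The profiles share libraries and depth, so r is a description. *Wt1* was most like *Tcf21* (0.954), *Chst1* (0.945) and *Ngb* (0.944), and *Nphs1* most like *Rarres1* (0.952), *Wif1* (0.943) and *Necab3* (0.940). *Synpo* was most like *Sulf1* (0.955), *Foxc2* (0.949) and *Nes* (0.941). *Podxl* was most like *Sema3g* (0.976), *Cldn5* (0.922) and *Plat* (0.911), genes that endothelial cells also express.

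*Kirrel* was most like *Mrgprf* (0.937), *Mrc2* (0.926) and *Hspa12a* (0.921). *Magi2* was most like *4921504A21Rik* (0.918), and its next genes, *Arvcf* (0.863) and *Ackr3* (0.855), were the least alike of those named. *Cd2ap* was most like *Itm2b* (0.908), *Bbx* (0.888) and *Vdac2* (0.888), and *Actn4* most like *Myo1d* (0.918), *Ryk* (0.913) and *Smim10l1* (0.912).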

How the data were processed

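Droplet-based 3′ scRNA-Seq libraries of whole kidney were made by the authors, 1 library per condition. The deposited values are UMI counts per gene and barcode, without normalization; they were counted with Cell Ranger (6.1.2 in the matrix headers, 2.1.1 with mm10 in the submitters' processing notes). The study removed doublets with scDblFinder and by marker combinations and corrected ambient RNA with SoupX; whether the deposited counts include either step is not given in the sources used here.

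Following the study's methods, barcodes were kept when they held 200 to 5000 genes and less than 50% of their UMIs came from mitochondrial genes. Unlike in the study, no doublet caller and no ambient RNA correction was run here. Barcodes whose UMIs of another class's markers exceeded the gate UMIs were called mixed and left out as an alternative. Other barcodes took 1 of 11 classes when the class's markers had at least 5 UMIs, at least 2 times their base level and at least 2 times the next class, a rule set after the data had been seen. Counts were pooled per library and class and given as CPM. Intervals are exact Poisson (levels), conditional binomial (ratios) and Clopper-Pearson (shares), at 95%. Genes with at least 50 pooled UMIs over both libraries were compared; past 1.5-fold was the call, and with 1 library per condition no test was made. Detection was compared after thinning to 1000 UMIs.

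Genes named are the members, the 3 genes with the most podocyte UMIs in each list, up to 3 listed genes per comparison past 1.5-fold with an interval that excludes 0, and the 3 genes most like each member. *Crb2*, *Kirrel2* and *Zhx3* were also named, after their values were seen, to complete small counts. The members and lists were chosen with earlier results of these data known. Some genes that this rule selects are not reported here. Promoter windows are RefSeq's. The functions for ratios and Poisson intervals were tested on simulated counts. The gate, the mixed call and the class rule were not tested in that way. The scripts ran under Python 3.11.15 with scipy 1.17.1 for intervals, pandas 2.3.3 and numpy 2.4.6 for tables, and matplotlib 3.10.9.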

Additional observations from a re-analysis of the deposited data

Results flagged for a closer look

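In 2 cases, member genes had log2 ratios of opposite sign in 2 groups under the same contrast over all podocyte barcodes. The difference was not tested, and the share of all genes with opposite signs is not given here. In each case 1 of the 2 intervals includes 0, so that sign is not settled by the counts. These are *Kirrel* in SP mice (-0.05 to 0.46) and *Nphs1* between SP-ND and WT-ND (-0.11 to 0.04). *Kirrel* was lower with HFD in WT mice (-0.25) and higher in SP mice (0.20), and was higher with HFD in both, at 0.34 and 0.14, without mixed barcodes. *Nphs1* differed by -0.03 between SP-ND and WT-ND and by 0.76 between SP-HFD and WT-HFD, and by -0.24 and -0.05 without mixed barcodes.

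*Nphs1* was also found in barcodes that passed the gate but fell outside the quality limits, which the comparisons as reported left out. These were 43 barcodes in WT-ND, 50 in SP-ND, 48 in WT-HFD and 18 in SP-HFD. Their *Nphs1* levels were 459.2, 853.8, 332.6 and 205.3 CPM, against 1.23 to 2.66 CPM in the 11 other classes together.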

How the results depend on the processing

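Member ratios were recomputed under 15 alternatives. Of the 480 ratios, 251 stayed within the counting interval of the reported value, 218 moved outside it and 11, past 1.5-fold as reported, changed sign. Of the 251 and 218 together, 39 that were inside 1.5-fold as reported also changed sign. The counts of members past 1.5-fold in SP-HFD against SP-ND and in SP-ND against WT-ND stayed at 0 under every alternative run. The podocyte barcodes numbered 1171 to 1989. For WT-HFD against WT-ND (5 members) the count was 8 with a gate of at least 3 UMIs, 3 with mitochondrial genes out of the total or with median ratio scaling, 2 under 30% mitochondrial UMIs, and 0 with a gate of at least 10 UMIs, a gate without *Cdkn1c*, mixed barcodes left out, or 2-fold as the call. For SP-HFD against WT-HFD (6 members) it was 8 with a gate of at least 3 UMIs, 3 with median ratio scaling, 1 under 30% mitochondrial UMIs, and 0 with a gate of at least 10 UMIs, a gate without *Cdkn1c*, mixed barcodes left out, or 2-fold. Of 3 alternatives chosen after seeing the data, gate genes of at least 30 in 10000 UMIs, scaling to other podocyte markers, and mixed barcodes and mitochondrial genes left out together, each gave 0 in both comparisons. Scaling to podocyte markers was bound to bring members near 0, because marker and member medians were alike, at -0.65 beside -0.64 and 0.74 beside 0.75. The limit of 30 in 10000 picks barcodes by the gate genes, and the mixed call does so in part, so podocyte gene levels are partly set by both. Shares of all genes past 1.5-fold are not given for the alternatives, except with mixed barcodes left out. The cause of these changes was not tested.

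The ratios past 1.5-fold that changed sign were, in SP-HFD against WT-HFD, *Kirrel* at -0.05 (gate without *Cdkn1c*), -0.23 (mixed barcodes left out), -0.16 (gate genes of at least 30 in 10000), -0.13 (scaled to podocyte markers) and -0.19 (mixed barcodes and mitochondrial genes left out). *Nphs1* was at -0.05 with mixed barcodes left out and -0.01 with mitochondrial genes left out too, and *Synpo* at -0.05, -0.01 and, scaled to podocyte markers, -0.01. In WT-HFD against WT-ND *Synpo* was at 0.03 scaled to podocyte markers.

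No paired analysis was possible because each condition has 1 library. Depth limits *Kirrel* most, at 232 to 316 podocyte UMIs per library. Intervals cover counting error only, and a difference between libraries cannot be told apart from one between conditions.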

Other observations

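Barcodes with 3 or 4 gate UMIs, just outside the podocyte gate, had *Ren1* and *Rbp7* as the genes with the largest fold over other classes. This order was taken over the 4 libraries pooled, and 275 of the 386 barcodes came from WT-HFD. *Podxl* in these barcodes was at 792.3 CPM in WT-ND, 243.5 in SP-ND, 262.7 in WT-HFD and 452.9 in SP-HFD.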
